A study of Mus musculus with 8 samples.

Results

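Insulin signaling and glucose uptake in muscle are described here through 10 genes, Slc2a1, Slc2a4, Insr, Irs1, Irs2, Pik3r1, Akt1, Akt2, Tbc1d1 and Tbc1d4. The genes were chosen by name for their roles in the pathway, and each has 1 row among the 24054 genes of the table. All 10 passed the filter on low values, which 11865 genes of the table passed. RNA was sequenced from soleus (SOL), a slow postural muscle, of 4 MI4KO mice, in which floxed Irf4 is deleted by a Cre under control of the muscle gene Myl1, and of 4 flox mice, which carry the floxed Irf4 alleles without Cre. IRF4 is a transcription factor best known from immune cells. All 8 mice were male C57BL/6 mice, a high fat diet is given in their labels, and their age is not stated. Each mouse gave 1 library of stranded poly(A) RNA, and the mice of a group are numbered 1 to 4 in the order of their samples. The deletion is limited to cells that express Myl1, whereas the RNA came from whole muscle, which also holds endothelial, Schwann, blood and fat cells.

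Insulin binds its receptor, a tyrosine kinase that phosphorylates IRS proteins. These recruit phosphoinositide 3-kinase, whose lipid product brings Akt to the membrane. Akt then phosphorylates the Rab GTPase-activating proteins TBC1D4 and TBC1D1, which releases a brake on vesicles that carry the glucose transporter GLUT4 to the surface of the fibre. Contraction reaches the same vesicles through other kinases, and skeletal muscle is the main site at which insulin lowers blood glucose after a meal. Much of this control acts on phosphorylation and on protein location, which RNA levels do not record.

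Between 13417512 and 16384565 reads per mouse were recovered, and 3 reads, taken as the smallest detected amount, equal a value of 0.181 to 0.225. The values are TMM-normalized CPM, in which libraries are scaled so that most genes have like levels, and they were compared on the log2(value + 1) scale, which understates the change of low genes. Irf4 was at 0.686, 1.46, 1.58 and 1.68 in flox mice and at 0.725, 0.840, 0.266 and 1.03 in MI4KO mice. Flox mouse 1 thus lay within the MI4KO range (exact two-sided permutation test, p = 0.114). These values rest on 4 to 23 reads per mouse. The MI4KO mean was 0.530 of the flox mean (unadjusted p = 0.0402 by limma and 0.0548 by edgeR's quasi-likelihood test). The paper reasons that whole muscle would lose only part of its Irf4 RNA, since many nuclei lie outside the fibres. Myl1 itself was lower in all 4 MI4KO mice (p = 0.0286 by the same exact test, the smallest it can give). By the strain name in the paper, the Cre is a targeted allele of Myl1 itself, which flox mice lack. No group carried the Cre without deletion of Irf4. Effects of that allele and of Irf4 loss thus cannot be told apart here, for Myl1 or for any other gene compared. The 6 slow-fibre genes, Myh7 among them, summed to values of 25470 to 34180 in every library, so markers of the slow fibres that SOL is known for were present. The 8 fast-fibre genes summed to higher values in every library, 35930 to 45640. Per kilobase of exon in flox mice, the fast-fibre gene Myh2 was at 2564 and Myh7 at 2060, so slow fibres are not shown to dominate. Libraries stood apart on several lists of markers. In MI4KO mouse 3, all 14 of 14 genes of a glucocorticoid-responsive list had their highest value, as did 30.9% of all genes tested. Their summed value was 4544 against 2519 to 2888 in the other mice, with Pdk4 alone at 2470 against 1562 to 1860. The list was chosen after earlier work on these data had set this mouse apart, so the count is a description. In flox mouse 1, the liver transcript Alb was at 59.8, whereas no other mouse exceeded 0.416. Several results that rest on 1 of these 2 mice are given with and without it. Myh4, the myosin of the fastest fibres, was at 1807, 2496, 34.5 and 35.4 in flox mice and at 278, 831, 55.8 and 2174 in MI4KO mice, so that high and low mice occurred in both groups.

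None of the 10 genes differed between MI4KO and flox muscle at a Benjamini-Hochberg adjusted p under 0.05 by limma, and 0% of the 11865 genes tested were called at that limit. The adjusted p was 1.0 for each of the 10 genes. The looser limits of an unadjusted p under 0.05 and a change of 1.5 times or more called 0 of the 10 genes, beside 0.219% of all genes tested (26 genes, 0.059% as higher and 0.16% as lower in MI4KO mice). At an unadjusted p under 0.05 alone, limma again called 0 of the 10, beside 3.36% of all genes. On the recovered reads, edgeR's quasi-likelihood test called 1 (Slc2a1), beside 3.14% of the 12335 genes it tested. DESeq2 called 1 (Slc2a4), beside 1.41% of 17900 genes, a set that includes low genes which the limma filter leaves out. Neither passed the adjustment. In no gene of the 10 did the MI4KO and flox values lie apart without overlap, which 2.07% of all genes did, 0.371% with higher and 1.7% with lower MI4KO values. The median log2 fold change, MI4KO against flox, was 0.03 over the 10 genes and -0.01 over all genes tested. Of the 10 genes, 6 lay above 0 and 4 below, beside 5194 above and 6671 below of all genes tested. The 95% intervals of the fold change stayed below 1.5 in all 10 genes and above 0.667 in 9 of them, with Irs2 as the exception. With 4 mice a group, differences of a size inside these intervals remain compatible with the values. The samples come from separately numbered mice, so the tests measure the spread between animals, with 1 library each.

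**Figure D1:**
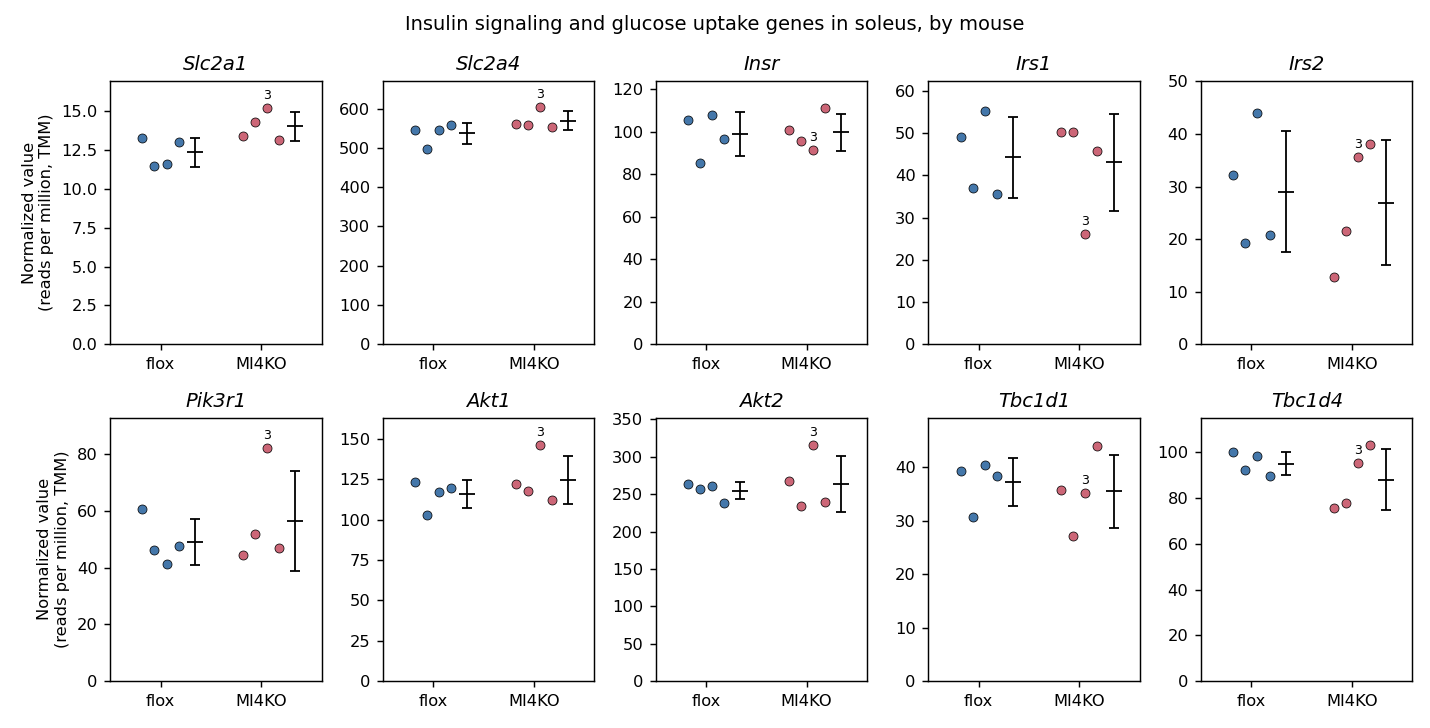
Normalized value (TMM-normalized CPM) of each of the 10 genes in each mouse, with 4 flox mice in blue and 4 MI4KO mice in red, and the mean with its SD beside each group (n = 4). The digit 3 marks MI4KO mouse 3. The groups overlap in all 10 genes, and Irs1, Irs2 and Pik3r1 show the widest spread.

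Levels between genes were compared per kilobase of exon, from the GENCODE M21 gene models on GRCm38. Slc2a4, the gene of GLUT4, stood first at 191.5 ± 9.58 per kb in flox mice (SD, n = 4), above 97.1% of the genes tested. Akt2 followed at 52.8 ± 2.43, and Akt1 at 43.1 ± 3.30 per kb. Tbc1d4 was at 14.3 ± 0.742 and Insr at 10.6 ± 1.1 per kb. The ranges of these 5 genes in flox mice did not overlap between neighbours in the order, and the first 4 held their rank in 8 of 8 mice. Below them, the flox ranges of each neighbouring pair overlapped. Pik3r1 was at 6.48 ± 1.08, Tbc1d1 at 5.64 ± 0.678, Irs1 at 4.84 ± 1.04, Irs2 at 4.59 ± 1.82 and Slc2a1 at 3.79 ± 0.290 per kb. RNA of the transporter at the end of the pathway was thus far more abundant per length than that of the receptor and its substrates.

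**Figure D2:**
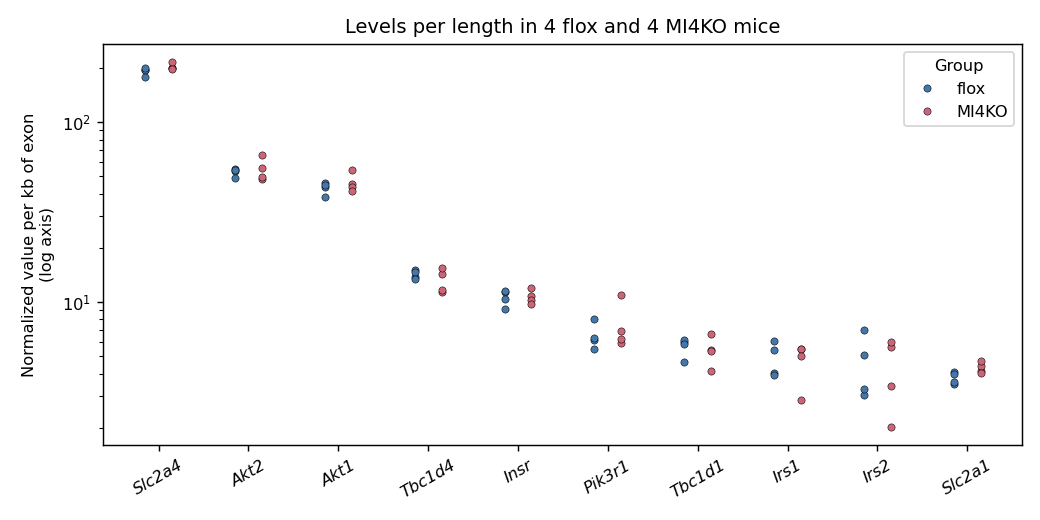
Normalized value per kilobase of exon on a log axis for each gene, ordered by the mean of the 4 flox mice, with each point a mouse (flox blue, MI4KO red). Slc2a4 lies far above the rest near 191.5 per kb, and the 5 genes from Pik3r1 to Slc2a1 overlap.

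Slc2a4 (chromosome 11 of GRCm38, 69942539 to 69948188, minus strand) encodes GLUT4, which insulin brings to the fibre surface. It was at 547, 498, 547 and 558 in flox mice and at 562, 560, 604 and 553 in MI4KO mice. Of the MI4KO mice, 3 of 4 lay above the highest flox mouse, and mouse 4 lay inside the flox range. The means were 537 ± 26.9 in flox and 570 ± 23.3 in MI4KO mice (SD, n = 4). The log2 fold change was 0.08 (standard error 0.07, 95% interval -0.06 to 0.23, unadjusted p = 0.240 by limma). Without MI4KO mouse 3, which held the highest value, it was 0.06. DESeq2 gave an unadjusted p of 0.0392 for nearly the same change, 0.10. Slc2a4 was also the steadiest of the 10 genes. Its SD over the 8 mice was 0.08 on the log2 scale, smaller than that of all but 5.98% of the genes tested. Its depth was 7176 to 9153 reads in each mouse.

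GLUT1, a transporter of basal uptake also found in endothelium and nerve sheaths, is made by Slc2a1 (chromosome 4, from 119108711 to 119137983, plus strand). Its values were 13.3, 11.4, 11.6 and 13.0 in flox mice against 13.4, 14.3, 15.2 and 13.2 in MI4KO mice. Again 3 of 4 MI4KO mice exceeded every flox mouse, and MI4KO mouse 4 fell just under flox mouse 1. The group means were 12.3 ± 0.945 and 14.0 ± 0.930 (SD, n = 4). Of the 10 genes Slc2a1 had the smallest unadjusted p in limma, 0.0861, at a log2 fold change of 0.17 (standard error 0.09, 95% interval -0.03 to 0.37). Without MI4KO mouse 3 it was 0.13. edgeR gave 0.20 with an unadjusted p of 0.0488 and an adjusted p of 0.998. With 155 to 229 reads per mouse, counting error alone gives a coefficient of variation of 7.50% in flox mice, where 7.65% was measured. In bulk muscle, fewer cells of a type and less RNA per cell cannot be told apart. Summed markers of other cell types ran from 367 to 442 in flox and 276 to 394 in the MI4KO group for 6 endothelial genes. For 7 erythroid symbols they ran from 412 to 599 and from 378 to 470. Hbb-b2 and Hbb-bt held the same values in every mouse, so the same reads may enter this sum more than once. For 6 Schwann cell genes the sums ran from 98.7 to 134 and from 91.9 to 112, and no gene of the 3 lists was at 0 in all mice. Each of these sums was highest in a flox mouse, but single genes of the lists differed. In MI4KO mouse 3, where Slc2a1 was highest, 2 endothelial genes (Pecam1 and Vwf) and 1 erythroid gene were highest too. In MI4KO mouse 2, 1 erythroid and 1 Schwann cell gene were highest, and the rest were highest in flox mice. The part of these cells in the Slc2a1 values was not tested.

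Among 11 genes of the Slc2a family, Slc2a4 made up 93.2% ± 0.507 of the summed level per kb in flox mice and 93.7% ± 0.364 in MI4KO mice (SD, n = 4). Slc2a8 came second with 3.13% ± 0.249 and 2.74% ± 0.275. Slc2a1 accounted for 1.84% ± 0.0984 in flox and 1.98% ± 0.0733 in MI4KO mice. The ratio of Slc2a4 to Slc2a1 per kb ran from 47.8 to 54.6 in flox mice and from 45.5 to 48.8 in MI4KO mice, so these ranges overlapped too. GLUT4 RNA thus dominated the family in both groups.

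Insr encodes the insulin receptor (chromosome 8, from 3122061 to 3279617, minus strand). In flox mice it was at 106, 85.5, 108 and 96.5, and in MI4KO mice at 101, 95.7, 91.5 and 111. The groups lay within each other's range almost entirely, with means of 98.9 ± 10.3 and 99.9 ± 8.62 (SD, n = 4). Its log2 fold change of 0.02 (standard error 0.09) was the closest to 0 of the 10 genes, and the 95% interval of the fold change was 0.883 to 1.16. Insr was lowest among the MI4KO mice in mouse 3, where 5 of the other genes had their highest value.

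Irs1 and Irs2 encode the main docking proteins of the receptor in muscle, and they were the most variable of the 10 genes. Irs1 (chromosome 1, from 82233101 to 82291416, minus strand) was at 49.2, 36.9, 55.2 and 35.7 in flox mice and at 50.3, 50.2, 26.1 and 45.7 in MI4KO mice. MI4KO mouse 3 was the lowest of the 8, and the other MI4KO mice lay inside the flox range. The means were 44.3 ± 9.52 and 43.1 ± 11.5 (SD, n = 4). The log2 fold change of -0.06 (standard error 0.20, unadjusted p = 0.763 by limma) became 0.16 without MI4KO mouse 3 and 0.22 without that mouse and flox mouse 1. MI4KO mouse 3 is the library in which the glucocorticoid-responsive Fkbp5 was at 159 against 19.4 to 31.2 elsewhere. The part of this difference in the Irs1 value was not tested.

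Irs2 (chromosome 8, from 10984681 to 11008458, minus strand) was at 32.2, 19.2, 44.0 and 20.8 in flox mice and at 12.8, 21.5, 35.6 and 38.1 in MI4KO mice. Values in the highest mouse, flox mouse 3, were 3.44 times those in the lowest, MI4KO mouse 1, and both groups held low and high mice. The means were 29.0 ± 11.5 and 27.0 ± 12.0 (SD, n = 4), with a log2 fold change of -0.14 (standard error 0.31, 95% interval of the fold change 0.564 to 1.45). Counting error gives a coefficient of variation of 4.90% in flox mice, whereas 39.7% was measured, so sequencing depth does not limit this gene. The SD of Irs2 over the 8 mice, 0.58 on the log2 scale, exceeded that of 99.0% of all genes tested and of 99.3% of the 4145 genes within 1 log2 unit of its level. For Irs1 the SD was 0.35, above that of 95% of all genes and 97.3% of those of like level. MI4KO mouse 1, with the least Irs2, also had the lowest endothelial marker sum of the 8 mice, 276, and the lowest adipocyte marker sum, 10.7 against 17.6 to 47.2 in the others over 6 genes. The part of these cells in the Irs2 values was not tested.

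The 2 IRS genes shared their pattern only in part. Irs1 and Irs2 were both highest in flox mouse 3, and both were low in flox mice 2 and 4. In MI4KO mice 1 and 2, Irs1 lay above its mean over the 8 mice and Irs2 below, and in MI4KO mouse 3 the reverse was seen. The ratio of Irs2 to Irs1 per kb was 0.946, 0.753, 1.15 and 0.841 in flox mice. It was 0.367, 0.619, 1.97 and 1.2 in MI4KO mice, so that 2 MI4KO mice lay below the flox range and 2 above it. As a share of the 4 Irs genes, Irs1 made up 51.4% ± 4.10 in flox and 52.8% ± 17.5 in MI4KO mice, and Irs2 46.9% ± 4.79 and 45.9% ± 17.1 (SD, n = 4). Irs4 had no reads in any mouse. The genes whose profile over the 8 mice came closest to that of Irs2, by the root-mean-square difference of mean-centred log2 values, were Zscan22 (0.22), Pxdc1 (0.26) and Csrnp1 (0.28), against 0.55 for Irs2 around its own mean. For Irs1 they were Rcan1 (0.11), Enah (0.12) and Intu (0.13), against 0.33.

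The promoters of these 2 widely varying genes are shown since both hold the same pair of short sequences, which differ in spacing. Each run is the 250 bases before the start of transcription in RefSeq on GRCm38.p6, written 5′ to 3′ on the minus strand, at chr1:82291440-82291689 for Irs1 and chr8:11008930-11009179 for Irs2, where RefSeq places both starts upstream of those in GENCODE M21. Capitals mark CACGTG, the E-box read by basic helix-loop-helix factors, and TTGTTTTG, the core of an insulin response element, a sequence to which FoxO factors bind.
Irs1: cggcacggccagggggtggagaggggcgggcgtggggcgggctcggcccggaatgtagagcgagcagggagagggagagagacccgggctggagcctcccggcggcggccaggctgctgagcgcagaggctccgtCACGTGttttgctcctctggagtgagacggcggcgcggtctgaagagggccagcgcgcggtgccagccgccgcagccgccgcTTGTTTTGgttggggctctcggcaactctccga
Irs2: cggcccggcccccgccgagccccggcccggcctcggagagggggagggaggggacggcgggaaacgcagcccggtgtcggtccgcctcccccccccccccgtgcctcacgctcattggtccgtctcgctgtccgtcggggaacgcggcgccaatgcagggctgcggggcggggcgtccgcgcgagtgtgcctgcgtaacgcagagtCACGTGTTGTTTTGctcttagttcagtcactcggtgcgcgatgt
In Irs2 the 2 matches abut, so that their capitals form 1 run, with the first base of the E-box 44 bases and that of the insulin response element 38 bases before the start. In Irs1 they stand apart, at 115 and 33 bases. Both windows are rich in G and C, at 72.4% for Irs1 and 72.8% for Irs2, against a median of 52.4% over all promoters. The E-box occurs in 6.02% and TTGTTTTG, on either strand, in 2.21% of 32851 promoter windows of the same length. These 2 motifs were chosen after the sequences had been seen, so the matches are descriptions.

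For 8 of the 10 genes, 14 promoter windows were found, and Slc2a4 and Insr had no entry. The interferon-stimulated response element GAAANNGAAA, which IRF factors bind, was searched on both strands and matched 0 of the 14 windows, beside 2.98% of all promoters. Likewise GGAANNGAAA, the composite element of ETS factors with IRF4 (which differs from the former in 1 base), matched 0 of 14, beside 2.30%. The FoxO sequence GTAAACA matched 1 window, that of Akt1, beside 3.17% of all. In Akt1 its first base stands 161 bases before 1 of the starts of the gene. A window without a match says nothing of sites elsewhere.

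Pik3r1 encodes p85alpha, the main regulatory subunit of phosphoinositide 3-kinase (chromosome 13, from 101680563 to 101768217, minus strand). It was at 60.5, 46.3, 41.4 and 47.6 in flox mice and at 44.5, 51.9, 82.3 and 47.1 in MI4KO mice. A single mouse, MI4KO mouse 3, stood above all others, and the other 3 MI4KO mice lay inside the flox range. The means were 49.0 ± 8.16 and 56.4 ± 17.5 (SD, n = 4). The log2 fold change was 0.17 (standard error 0.17) with all mice and -0.02 without MI4KO mouse 3. Of the 3 class IA regulatory subunit genes, Pik3r1 made up 34.3% to 44.9% per kb in flox mice and 36.6% to 51.7% in MI4KO mice. Pik3r2, which encodes p85beta, held the larger mean share, 48.1% ± 4.08 in flox and 44.7% ± 4.52 in MI4KO mice (SD, n = 4). The shares divide by the joined exons of all transcripts of a gene, 7.561 kb for Pik3r1 and 3.165 kb for Pik3r2. Before that division the order was reversed, with flox means of 49.0 for Pik3r1 and 25.8 for Pik3r2.

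The kinases Akt1 and Akt2 carry the signal onward, and Akt2 is the form most tied to glucose uptake. Akt2 (chromosome 7, from 27591552 to 27640826, plus strand) was at 264, 257, 260.5 and 238 in flox mice and at 268, 234, 316 and 239 in MI4KO mice. Akt1 (chromosome 12, from 112653821 to 112674884, minus strand) was at 123, 103, 117 and 120 in flox mice and at 122.1, 118, 146 and 112 in MI4KO mice. Both were highest in MI4KO mouse 3, where Akt2 exceeded the next mouse, at 268, and Akt1 the next, at 123. Means of Akt2 were 255 ± 11.7 and 264 ± 37.6, with a log2 fold change of 0.04 that became -0.05 without MI4KO mouse 3. Akt1 had means of 116 ± 8.88 and 124 ± 14.9 (SD, n = 4), with a log2 fold change of 0.10 that became 0.02 without that mouse. Akt2 exceeded Akt1 per kb in every mouse, by a ratio of 1.11 to 1.39 in flox mice and of 1.11 to 1.22 in MI4KO mice.

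Tbc1d4 and Tbc1d1 encode the Rab GTPase-activating proteins that Akt phosphorylates, the latter also a target of AMP-activated kinase. Tbc1d4 (chromosome 14, from 101442360 to 101609191, minus strand) was at 100, 92.3, 98.5 and 89.6 in flox mice and at 75.6, 78.0, 95.3 and 103 in MI4KO mice. MI4KO mice 1 and 2 lay below every flox mouse, mouse 3 inside the flox range and mouse 4 above it. The means were 95.1 ± 4.95 and 88.1 ± 13.5 (SD, n = 4), with a log2 fold change of -0.12 (standard error 0.10, 95% interval of the fold change 0.792 to 1.07). Without MI4KO mouse 4 it was -0.20. Tbc1d1 (chromosome 5, from 64156305 to 64351486, plus strand) was at 39.4, 30.7, 40.5 and 38.4 in flox mice and at 35.7, 27.1, 35.3 and 44.0 in MI4KO mice. Each group held 1 low mouse, numbered 2 in both, and the ranges overlapped broadly. Its means were 37.2 ± 4.47 and 35.5 ± 6.88 (SD, n = 4), with a log2 fold change of -0.08 (standard error 0.13). Tbc1d4 exceeded Tbc1d1 per kb in every mouse, 2.31 to 2.98 times in flox mice and 2.1 to 2.84 times in the others.

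**Figure D3:**
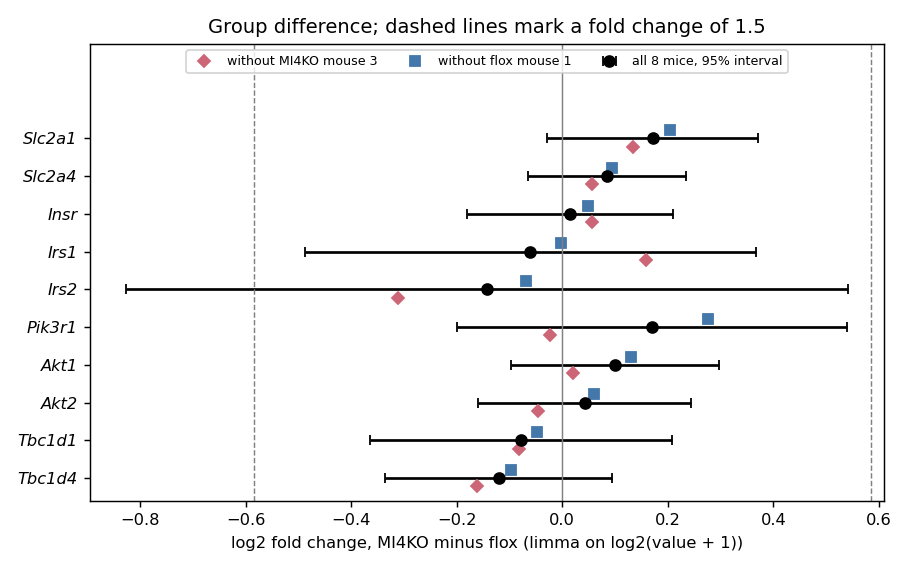
Log2 fold change (MI4KO minus flox, limma on log2(value + 1)) of the 10 genes with 95% intervals in black, and the same without MI4KO mouse 3 (red diamonds) and without flox mouse 1 (blue squares). All 10 intervals include 0, and the dashed lines at a fold change of 1.5 are crossed at the lower side by Irs2 alone.

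Mouse by mouse, the genes did not move as 1 block. MI4KO mouse 3 had the highest value of 5 of the 10 genes (Slc2a1, Slc2a4, Pik3r1, Akt1 and Akt2), or 50%, where it had the highest value of 30.9% of all genes tested. In the same mouse Irs1 was at its lowest. Its deviation from the mean of the gene was 0.67 for Pik3r1, 0.29 for both Akt genes and -0.69 for Irs1 on the log2 scale. Fkbp5 was at 159 in that mouse against 19.4 to 31.2 in the others, and Mt1 at 191 against 17.8 to 26.3. Of 8 fast-fibre genes, 4 were highest in that mouse, while its Myh4 was among the lowest, and their summed value was 45640 there against 40750 to 44900 in flox mice and 35930 to 44420 in the other MI4KO mice. The part of these markers in the 6 values was not tested. MI4KO mouse 4 had the highest Insr, Tbc1d1 and Tbc1d4, while it led in 8.18% of all genes. Flox mouse 2 had the lowest Slc2a1, Slc2a4, Insr and Akt1, 40% of the 10 genes beside 15.3% of all genes. MI4KO mouse 4 and flox mouse 2 also had the 2 highest values of Myh4, whose part in the values was not tested. No gene of the 10 was highest or lowest in flox mouse 1, the mouse with liver transcripts.

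**Figure D4:**
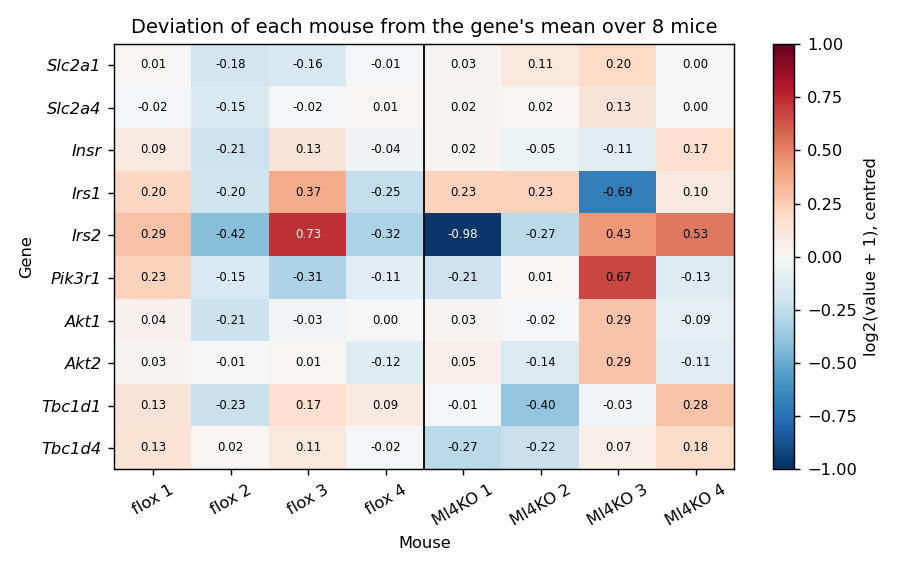
Deviation of each mouse (columns, flox left of the line and MI4KO right) from the mean of each gene over the 8 mice, in log2(value + 1), with red above and blue below the mean. Irs2 runs from -0.98 in MI4KO mouse 1 to 0.73 in flox mouse 3, MI4KO mouse 3 holds Pik3r1 at 0.67 and Irs1 at -0.69, and Slc2a4 runs from -0.15 to 0.13.

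The surrounding pathway was read through 6 lists with 98 further genes, all with a row and 83 of them past the filter. Called by an adjusted p under 0.05 were 0 of 83, and 0 of 83 passed the limits of p and fold change, beside the 0% and 0.219% of all genes given above. Their median log2 fold change was 0.02, with 49 genes above 0 and 34 below. Of all genes tested, 5194 lay above 0 and 6671 below. The median of all genes moved from -0.01 to 0.03 with library-size scaling, so counts above and below 0 depend on the scaling. At an unadjusted p under 0.05, limma called 0, edgeR 2 and DESeq2 3 of them. The same tools called 3.36% of 11865, 3.14% of 12335 and 1.41% of 17900 genes. The last set includes low genes that the limma filter leaves out, so these shares are not alike. Foxo6 was the only 1 of the 83 whose groups did not overlap, beside 2.07% of all genes.

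Of the receptors, adaptors and receptor inhibitors, 14 of 17 were tested, and 11 lay above 0 and 3 below. Socs3, an inhibitor of insulin and cytokine receptors, was at 2.87, 3.61, 3.30 and 2.70 in flox mice and at 2.18, 6.85, 4.99 and 4.71 in MI4KO mice. MI4KO mice 2, 3 and 4 lay above the flox range and mouse 1 below it, at a log2 fold change of 0.40 (standard error 0.22). Without MI4KO mouse 1 the value was 0.65, past the limits of p and fold change but not the adjustment. The phosphatase gene Ptprf at -0.24 and the adaptor gene Grb2 at -0.10 lay at the other end on the log2 scale. Grb14, an inhibitor of the receptor kinase, was among the most abundant in flox mice, at 47.5 per kb.

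Of the phosphoinositide 3-kinase subunits and lipid phosphatases, 12 of 13 were tested, with 3 above 0 and 9 below. The catalytic subunit genes Pik3cd at -0.18 and Pik3cb at -0.15 were lowest on the log2 scale, and the regulatory subunit gene Pik3r3, at 0.06, was among the highest. By level, Inppl1, which encodes the lipid phosphatase SHIP2, led at 64.6 per kb in flox mice, ahead of Inpp5k at 14.6. The regulators and substrates of Akt were all tested (20 of 20, with 11 above 0 and 9 below). Foxo6, a FoxO transcription factor, was at 14.9, 18.8, 14.7 and 20.9 in flox mice and at 14.5, 14.3, 14.0 and 14.6 in MI4KO mice. All 4 MI4KO values lay just under the lowest flox value, and the log2 fold change was -0.24 (standard error 0.11, unadjusted p = 0.0522 by limma). Pde3b, a phosphodiesterase that Akt activates, was at -0.23, while Foxo3 at 0.11 and Rheb at 0.10 were the highest. Gsk3a, a kinase that Akt switches off to release glycogen synthesis, was the most abundant at 57.9 per kb, followed by Foxo4 at 50.5.

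Of the genes of GLUT4 vesicle traffic, 22 of 22 were tested, with 16 above 0 and 6 below. Rab13, a target of TBC1D4, was at 0.23, and Ralgapa2, a GTPase-activating protein gene of the Akt pathway, at 0.22 on the log2 scale. Ralgapa2 was at 20.3, 15.1, 15.7 and 16.5 in flox mice and at 18.4, 20.0, 21.9 and 18.8 in MI4KO mice, and flox mouse 1 alone reached into the MI4KO range. It reached an unadjusted p of 0.0362 in edgeR (adjusted p = 0.998) and of 0.0527 in limma. Without flox mouse 1 the log2 fold change of Ralgapa2 was 0.31 (unadjusted p = 0.00834 and adjusted p = 0.9993 by limma). The sorting receptor gene Sort1 at -0.13 and Rab8a at -0.11 stood at the low end. Rab10 at 69.1 per kb and Rac1 at 38.0 per kb were the most abundant. Reads of Stxbp3a, which stands for Stxbp3, may be shared with its near copy Stxbp3b.

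Of other transporters and hexokinases, 6 of 16 passed the filter, with 2 above 0 and 4 below. Hk2, the hexokinase of insulin-responsive muscle, was at 92.0 per kb in flox mice, the highest level of this list. Its log2 fold change was 0.06, and Slc2a8 at -0.11 and Hk1 at -0.10 were lowest. Of the factors that act on Slc2a4 transcription, 9 of 10 were tested, with 6 above 0 and 3 below. Ppargc1a, the coactivator of mitochondrial genes, was at 76.8, 28.5, 37.7 and 32.9 in flox mice and at 45.6, 35.1, 101 and 48.8 in MI4KO mice. Flox mouse 1 and MI4KO mouse 3 were its highest in each group. Its log2 fold change of 0.38 (standard error 0.32) was 0.68 without flox mouse 1, past the limits of p and fold change but not the adjustment, and 0.07 without MI4KO mouse 3. Mef2a, a factor that binds the Slc2a4 promoter, was at 0.14 (standard error 0.07), with an unadjusted p of 0.0379 in edgeR. Hdac4 at -0.15 and Hdac5 at -0.04 were lowest. Mef2c was the most abundant at 147 per kb, before Mef2d at 23.1.

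**Figure D5:**
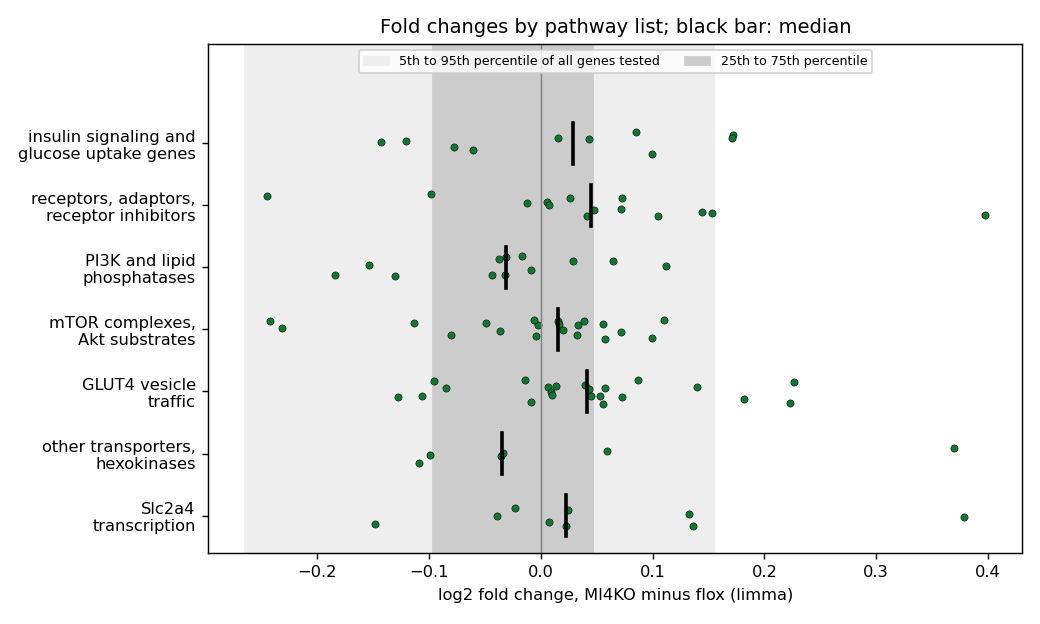
Log2 fold changes (MI4KO minus flox, limma) of the 10 genes and of the tested genes of 6 pathway lists, 1 point a gene, with the median of each list as a black bar. The shaded bands hold the middle of all genes tested, from -0.26 to 0.15 (5th to 95th percentile) and from -0.10 to 0.05 (25th to 75th), and the medians of all lists lie within the narrower band.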

How the data were processed

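SOL muscle of 4 MI4KO and 4 flox mice was analysed by RNA-seq, with each group taken from the label of the mouse. The authors prepared stranded poly(A) libraries (Kapa), sequenced single reads of 50 bases, and processed them with bcl2fastq 2.17, Bowtie2 2.1.0 and RSEM 1.2.15 on mm10. Per gene and mouse the authors deposited a signal, the CPM after TMM (trimmed mean of M-values) scaling. The table also holds a fold change, a p-value and an FDR from the authors' own comparison, which were not used.

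Whole reads were recovered from the steps of the values, with 100% of those above 0 within 0.02 reads of a whole number. Of 24054 genes, 6086 had no reads, and 27 symbols stand as dates. The chi-square between any 2 libraries, divided by its degrees of freedom, was 6.06 to 52.4, so each counted as 1 sample. Without molecular identifiers, read totals and floors speak for counting error alone.

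limma 3.58.1 (R 4.3.3) was run with a mean-variance trend on log2(value + 1), over genes that reached 1 in 4 or more mice, with Benjamini-Hochberg adjustment over all 11865. Calls were counted at an adjusted p under 0.05, and at an unadjusted p under 0.05 with a change of 1.5 times or more. Exact permutation tests used scipy 1.17.1. edgeR 4.0.16 and DESeq2 1.42.0 on the recovered reads, other pseudocounts, filters and scalings, a term for the series of mouse numbers, and leaving out mice were alternatives. The test was checked on simulated data with planted changes larger than those of the 10 genes, so the check says nothing of changes of their size. Levels per kb used the exons of the GENCODE M21 basic transcripts on GRCm38, which is mm10, and promoters came from a RefSeq table of GRCm38.p6. The deposited table holds no coordinates, so genes were matched by symbol, 2 of them through older names. Named beyond the 10 genes are, for each pathway list, the 2 highest and 2 lowest fold changes and the 2 highest levels per kb, genes past a call rule, the 3 nearest profiles of the 2 most variable genes, and markers of the libraries that stand apart. Slc2a8, Pik3r2, Irs4 and Stxbp3a are also named as parts of a family or match, and some genes that the rule picks are not reported here. The genes and lists were chosen with earlier results of these data known.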

Additional observations from a re-analysis of the deposited data

Results flagged for a closer look

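Irs1 in MI4KO mouse 3 was the 1 value of the 10 genes that lay far from the rest of its group. It was at 26.1, while the other 3 MI4KO mice lay between 45.7 and 50.3, and on the log2 scale the gap to the nearest of them took up 0.856 of the range of the group. In all, 20 groups of 4 mice were examined in this way, and chance marks about 1 in 20. The same mouse had the highest values of all 14 glucocorticoid-responsive genes, beside 30.9% of all genes tested. The part of these markers in the Irs1 value was not tested.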

How the results depend on the processing

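Over 18 alternative settings the 10 genes gave 180 fold changes, of which 169 kept their direction and 11 did not. None reached an adjusted p under 0.05, and 5 reached an unadjusted p under 0.05, all for Slc2a1 (edgeR, median-of-ratios and library-size scaling) or Slc2a4 (DESeq2 and library-size scaling). Leaving out 1 mouse at a time gave log2 fold changes of 0.13 to 0.20 for Slc2a1, 0.05 to 0.10 for Slc2a4, -0.0524 to 0.0598 for Insr, -0.15 to 0.16 for Irs1, -0.34 to 0.16 for Irs2, -0.0226 to 0.275 for Pik3r1, 0.02 to 0.15 for Akt1, -0.0465 to 0.0977 for Akt2, -0.184 to 0.0411 for Tbc1d1 and -0.20 to -0.05 for Tbc1d4. Without both flox mouse 1 and MI4KO mouse 3, Irs1 was at 0.22 and Akt2 at -0.0299. Among pathway genes, the count past the limits of p and fold change was 0, 1 by DESeq2 (Socs3), and 0 to 1 without 1 mouse (Ppargc1a without flox mouse 1, Socs3 without MI4KO mouse 1). Over all genes it was 26, 41 with a pseudocount of 0.5, 13 with robust estimation, 87 by edgeR, 73 by DESeq2, and 18 to 57 without 1 mouse, with 57 without MI4KO mouse 4. The count at an adjusted p under 0.05 was 0 to 1 over all genes without 1 mouse, with the 1 without MI4KO mouse 2. The cause was not tested. The numbers of the mice fall into 2 ranges that both groups share, and with the range as a covariate the 10 genes kept their direction, with none called, while Irs2 moved from -0.143 to -0.0165, Irs1 from -0.0606 to -0.161 and Tbc1d4 from -0.121 to -0.0788 (log2). No paired analysis was possible because no single mouse number occurs in both groups. With 4 mice a group, the spread between mice limits the detection of differences more than depth does for each of the 10 genes except Slc2a1, whose spread is near its counting error.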
